A study of Mus musculus with 6 samples.

Results

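Small RNA libraries made to count microRNAs also hold longer RNAs, and the sequenced small RNAs of 28 to 36 nt were examined here. Members were chosen by length and by what they do not match: every distinct read of 28 to 36 nt, in any of 6 samples, that matched no GENCODE mouse miRNA hairpin (with up to 3 unmatched 3′ bases), no snoRNA gene and no mitochondrial (mt-) gene exactly. This left 241760 distinct sequences of the 738360 in the series, and 5096273 of its 34910164 sequenced reads. The same rule set aside 2274 distinct reads of this length for a hairpin, 5030 for a snoRNA gene and 4319 for an mt- gene, and the members held 90.8% to 94.8% of the reads of 28 to 36 nt in a sample.

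The cells were bone marrow monocytes (BMMs) from wild type C57BL/6 mice. They were cultured with PBS as control (3 samples) or with LPS, a bacterial endotoxin, at the super-low dose of 5 pg per ml (3 samples), for 4 h, and the question of the comparison was whether so little LPS changes the small RNAs of monocytes. The sources name DMEM in one place and RPMI in another as the medium. Nothing says whether the 3 samples of a group came from separate animals or cultures, so p-values measure only the spread between these samples. RNA was taken from whole cultures, in which fewer cells of a type and less RNA per cell cannot be told apart.

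As background, the most abundant RNAs of a cell are ribosomal RNA (rRNA) and transfer RNA (tRNA). When a mature tRNA is cut in its anticodon loop, for which angiogenin is the best known enzyme in stressed mammalian cells, it yields a 5′ piece and a 3′ piece, often called tiRNAs. These pieces are a familiar class of small RNA in blood and immune cells. The A box and the B box are the internal promoter elements of tRNA genes, and since they lie in the D arm and the T arm their letters remain in the tRNA itself, so that a 5′ piece carries the A box and a 3′ piece the B box.

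For description, members were joined in start groups, the reads that share their first 18 bases, and each group is shown by its most frequent read. The 12 start groups with the highest mean level held 67.1% to 76.9% of the long reads of a sample, so the sequences of 10 of them are given first. Leading tRNA reads are shown here with the A box in capitals. The names come from background knowledge, except that of Val, for which a gene sequence was at hand.
Val 5′ piece: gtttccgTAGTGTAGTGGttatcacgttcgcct
Gly 5′ piece: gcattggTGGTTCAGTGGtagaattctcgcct
Lys 5′ piece: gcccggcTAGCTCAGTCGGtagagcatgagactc

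Val, Gly and Lys here stand for the amino acid that the tRNA carries. The Val read was the same, over all 33 of its bases, as the first 33 bases of the tRNA gene n-TVcac9 (GRCm38.p6, chr13:23446142-23446214, minus strand), a gene of 73 bases that RefSeq places there and whose sequence lies in a RefSeq promoter window. The gene is shown with its anticodon, at bases 34 to 36, in capitals, and the most frequent Val read ended at the base before it.
n-TVcac9: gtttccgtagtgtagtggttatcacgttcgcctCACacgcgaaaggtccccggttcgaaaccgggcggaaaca

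The other large share was ribosomal. The reads below have the letters of the 5′ end of 28S rRNA, of the 5′ end of 5.8S rRNA and of a stretch inside 28S rRNA, all 3 named from background knowledge. None of these leading reads matched a GENCODE transcript exactly. Capitals mark the last 5 bases of the 28S start piece, which were absent from a shorter form of 29 nt, the extra first C of the second 5.8S read, and the first base of the internal piece.
28S start piece: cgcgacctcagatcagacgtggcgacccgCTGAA
5.8S start piece 1: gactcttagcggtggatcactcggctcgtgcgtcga
5.8S start piece 2: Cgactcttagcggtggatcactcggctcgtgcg
28S internal piece: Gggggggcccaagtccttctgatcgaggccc

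Lesser forms of the Gly read were also among the first 12. Counted from 1 at the 5′ end, Gly variant 1 differed from the Gly 5′ piece by G6T and Gly variant 3 by T5G, with the changed base in capitals. Gly variant 2 was 1 base shorter, with a G missing at base 6 or 7, and the remaining G is in capitals.
Gly variant 1: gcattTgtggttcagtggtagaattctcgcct
Gly variant 2: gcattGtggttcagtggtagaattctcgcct
Gly variant 3: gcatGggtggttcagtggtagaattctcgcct

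The samples held 2201520 to 17691405 reads and 256034 to 2387627 long reads. LPS replicate 2 was the deepest and stood apart: sequences with a single read were 18.6% of its distinct sequences, where they were 67.1% to 74.6% elsewhere. Of 1459 start groups tested below, LPS replicate 2 was more than 2 times the next highest sample in 103, and LPS replicate 1 in 98. LPS replicate 2 was more than 2 times below the next lowest sample in 166, and control replicate 2 in 152. Control replicate 2 was the lowest sample in 450 groups, and LPS replicate 1 the highest in 542. miRNAs of macrophages and other blood cells were abundant in all samples, with 118004 to 138793 reads per 1000000 reads of the sample (RPM) for miR-22-3p, 79009 to 115670 for miR-21a-5p, 6808 to 9168 for miR-142a-5p and 3239 to 3860 for miR-223-3p. miR-142a-3p was at 632.3 to 908.5 RPM in 5 samples and at 1888 in LPS replicate 2. The erythroid miR-451a and miR-144-3p were at 0 to 0.414 RPM, and miR-9-5p, of brain, at 0.226 to 2.27. Of 4 epithelial miRNAs, miR-192-5p was at 412.7 to 674.9 RPM and miR-141-3p at 9.99 to 26.1, while miR-200c-3p (17.5 against 0.583 to 2.07) and miR-194-5p (98.4 against 24.5 to 35.5) were highest in LPS replicate 2. Without a sequence in the table used, miR-150-5p, miR-122-5p, miR-124-3p, miR-1a-3p and miR-133a-3p were not searched.

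Long small RNAs made up 10.6% to 19.1% of all reads, and control and LPS did not differ beyond the spread between replicates. They took 15.7%, 10.6% and 16.1% of the reads in control replicates 1, 2 and 3, and 19.1%, 13.5% and 12.9% in the LPS replicates. The 95% Wilson intervals, which cover counting error only, were narrow, for example 10.56% to 10.64% in control replicate 2, so the differences between replicates were much larger than counting error. The highest value was LPS replicate 1 and the lowest control replicate 2, and the groups overlapped. LPS was higher by 1 percentage point (p = 0.7, two-sided exact permutation test). With 3 samples against 3 this test cannot give less than 0.1. Without control replicate 2 the sign turned, to -0.772 percentage points, and without LPS replicate 1 to -0.961.

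By length, the long reads were highest at 32 to 34 nt, apart from the miRNA peak at 22 nt (295823 to 339112 RPM). At 33 nt the control samples held 36220, 26697 and 53293 RPM and the LPS samples 57759, 26755 and 36053. At 34 nt the values were 51069, 19117 and 40873 RPM in control, and 50542, 16214 and 30758 with LPS. At 32 nt they were 17015, 17441 and 16823 RPM in control, and 20237, 32765 and 16718 with LPS. The peak thus stood at 33 nt in 4 samples, at 34 nt in control replicate 1 and at 32 nt in LPS replicate 2. Control replicate 2 and LPS replicate 2 were the lowest of their groups at 33 and 34 nt, with long reads of 30 nt at 11% and 12.1%, against 5.17% to 7.21% in the other samples. Between 28 and 31 nt the levels ran from 4145 to 17618 RPM and at 35 and 36 nt from 5093 to 15069 RPM, with more at 36 than at 35 nt in all samples and more at 30 than at 31 nt in all but control replicate 3 and LPS replicate 2. No single length could pass 0.05 in this test, which cannot give less than 0.1 with 3 samples against 3. The unadjusted two-sided exact permutation p ran from 0.2 at 31 nt to 0.9, and all 9 lengths had a Benjamini-Hochberg adjusted p of 0.9 in that permutation test. Between samples of the same number, LPS was higher at 29, 30 and 31 nt and lower at 34 nt in all 3 pairs (exact sign-flip p = 0.25, the smallest that 3 pairs can give). These lengths were picked from the 9 for agreeing, without adjustment, and the labels do not say what the numbers share.

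Each read was placed in the first class it met, in the order of GENCODE rRNA transcript, other small non-coding RNA, A box, B box, 3′ CCA end, exon of another transcript, and none. Reads with the A box, the mark of tRNA 5′ pieces, were the largest of the 6 classes that a read could meet. The leading read of the 28S start piece met none of them. In control replicate 1 its start group, at 38.3% of the long reads, was above the A box class. Reads with an A box starting within their first 11 bases made up 35.3%, 46.4% and 54% of the long reads in the control samples and 43.7%, 60.3% and 49.2% in the LPS samples. LPS replicate 2 was highest and control replicate 1 lowest, and the groups overlapped (difference 5.84 percentage points, exact permutation p = 0.5, adjusted p = 0.7 over 7 classes). The difference was 0.882 percentage points without control replicate 1 and 1.21 without LPS replicate 2. The match was to letters on the read's own strand. In the A box class, 85.2% to 93.8% of the reads had the box start at base 8 and 4.41% to 12.4% at base 7, where it falls in reads that begin at the first base of a tRNA, or with 1 base less. The same search found the A box in 0.00781% to 0.0352% of the reads of this length that the rule had set aside, in 0.257% to 0.5% of the reads of 20 to 27 nt, and in 0.821% to 1.89% of those of 37 to 40 nt.

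Few reads of 28 to 36 nt carried marks of the 3′ side of tRNA. From the base after the anticodon to an added CCA, the Val tRNA shown above has 40 bases, more than the lengths chosen here. The B box core, searched only as GGTTCGA on the strand of the read, marked 0.23% to 0.286% of the long reads in a sample in its class. CCA is the 3 bases added to the 3′ end of every mature tRNA. Reads that ended in CCA and had met no earlier class held 0.389% to 0.665%. In reads of 37 to 40 nt the B box core was found in 1.35% to 2.65%. Exact matches to GENCODE rRNA transcripts, mainly 5S, held 0.27% to 0.597%, other small non-coding RNA 0.549% to 0.825%, and exons of other transcripts 3.18% to 5.12%. The exon class takes in Gm42418, a lincRNA known to overlap rRNA sequence. The remainder, 32.8% to 59.1%, met no class, and the 28S start piece alone was 10.7% to 38.3% of all long reads. For all 7 classes the adjusted p was 0.7 (exact permutation tests, unadjusted p from 0.2 to 0.7), and the widest Wilson interval of a class share in a sample was 0.387 percentage points.

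The 28S start piece had the highest mean level over the 6 samples, but was the first start group only in control replicate 1 and LPS replicate 1. Its start group held 60188, 23482 and 39285 RPM in the control samples and 59186, 14395 and 29905 in the LPS samples, from 642 distinct reads. Replicate 2 of each group was the lowest of its 3, and the groups overlapped. The log2 fold change (LPS against control) was -0.33 (SE 0.44, adjusted p = 0.973, edgeR), and 0.00 without LPS replicate 2. Its most frequent length was 34 nt in all samples, with 48.3% to 63.4% of the group. A 36 nt form that adds 2 T held 7.83% to 25%, and the 29 nt form that ends before the capitals held 11% in control replicate 2 and 9.24% in LPS replicate 2, against 1.44% to 3.29% in the other 4. The same start went on past 36 nt, outside the length chosen here: reads of 37 to 40 nt with it were at 10594, 1852 and 10842 RPM in control and 12213, 1986 and 10922 with LPS. Reads of 18 to 27 nt with it were at 1884 to 2933 RPM.

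The Val 5′ piece was second by the mean over the 6 samples. It was above the 28S start piece in control replicates 2 and 3 and LPS replicates 2 and 3, and below the Gly 5′ piece in LPS replicate 2. Its start group was at 26900, 23876 and 54526 RPM in control and at 52596, 17517 and 36046 with LPS. Control replicate 3 and LPS replicate 1 were high, LPS replicate 2 was lowest, and the group means of 35100 ± 16890 and 35386 ± 17549 RPM (SD, n = 3) lay close together. The log2 fold change was -0.07 (SE 0.40, edgeR adjusted p = 0.995). It was 0.02 with library totals, 0.20 without LPS replicate 2 and 0.41 without control replicate 3. Of the group, 66.6% to 75% was 33 nt long, and 6.85% to 23.3% was 32 nt. Few reads of the n-TVcac9 gene began elsewhere. Reads that start at its second base (first 18 bases compared) were at 50.2 to 102.4 RPM, and exact pieces that start later at 74.8 to 243.8 RPM.

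The Val reads that run past base 33 reach the anticodon, where Val tRNAs differ. Whether Val-AAC and Val-TAC genes share the first 33 bases was not checked, since no sequence of them was at hand. RefSeq names 12 Val-CAC genes, 9 Val-AAC genes and 3 Val-TAC genes. As background, the first base of the anticodon AAC is edited to inosine, which sequencing reads as G. At base 34, C was read in 53.8%, 28.2% and 70.8% of the control reads and in 57.8%, 41.6% and 71.6% of the LPS reads, and G in 41%, 64%, 28.3%, 38.5%, 52.9% and 26.9% in the same order. Replicate 2 of each group had more G than C, and the other 4 samples more C than G. T was read there in 0.728% to 6.97% and A in 0.0985% to 0.757% of the reads. In reads long enough to hold all 3 anticodon bases, 8294 in all 6 samples together, the letters were gac in 76.2% to 94.8% and cac in 3.23% to 17.5% of the reads of 5 samples, while LPS replicate 2 had 40.3% gac and 54.7% cac. The order of C and G at base 34 in these longest reads was thus the opposite of that over all reads past base 33 in every sample but control replicate 2. Reads of 34 nt that end in that C were at 2180, 250.9 and 8575 RPM in control and 4043, 361.1 and 4857 with LPS, and those that end in G at 1375, 580.1 and 2617 RPM in control and 2250, 479.1 and 1275 with LPS.

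The Gly 5′ piece was steady in 5 samples and high in LPS replicate 2. Its group was at 10607, 11441 and 13792 RPM in control and at 11001, 26944 and 10844 with LPS. The log2 fold change was 0.52 (SE 0.46, edgeR adjusted p = 0.973) and turned to -0.26 without LPS replicate 2. In 5 samples 32 nt was the most frequent length (29.7% to 44.6%), and in control replicate 2 it was 30 nt (41.3%, with 33.5% at 32 nt). The 30 nt form was at 1398, 4654 and 2011 RPM in control and 1904, 6719 and 2567 RPM with LPS, highest in replicate 2 of each group. Past base 32, the next base was G in 87.4% to 97.4% and C in 0.0427% to 0.285% of the reads. Where all 3 anticodon bases could be read (8687 reads), they were gcc in 89.6% to 96.6%, the anticodon that 14 of the RefSeq Gly genes have.

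The Lys 5′ piece varied little. It held 2145, 1864 and 1964 RPM in control and 2200, 2162 and 1983 with LPS, with group means of 1991 ± 142.3 and 2115 ± 115.8 RPM (SD, n = 3). The values of the groups overlapped, the log2 fold change was 0.09 (SE 0.26, edgeR adjusted p = 0.98), and LPS replicate 2 lay within the range of the others. Its most frequent length was 34 nt in all samples, with 39.2% to 56.5% of the group.

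Together, the start groups of Val, Gly, Lys and the Gly variants, 6 in number, held 74.8% to 88.7% of the A box class. The Gly starts summed to 16985, 16519 and 20831 RPM in control and 17356, 41264 and 16349 with LPS (exact permutation p = 0.7). LPS replicate 2 was the highest sample and control replicate 3 the next.

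The Gly variants with a changed or missing base were set against the sum of the 4 Gly starts. The Gly variant with G6T was 23.7%, 16.2% and 19.4% of that sum in control, and 21.2%, 14.2% and 18.1% with LPS, lowest in replicate 2 of each group. The Gly variant with T5G was 5.36% to 6.01% in 5 samples and 10.3% in LPS replicate 2. The Gly variant with 1 G less was 7.91%, 8.52% and 9.05% in control and 9.93%, 10.2% and 10.1% with LPS. These last values did not overlap, with a difference of 1.6 percentage points, but the exact permutation p was 0.1, the smallest possible here, and 0.4 when adjusted over the 4 shares. In edgeR the log2 fold changes were 0.26 (SE 0.38) for Gly variant 1, 0.78 (SE 0.48) for Gly variant 2 and 1.09 (SE 0.67) for Gly variant 3, each with an adjusted p of 0.973. Without LPS replicate 2 they were -0.23, 0.00 and -0.30.

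The mean length of the reads in a start group was shorter in replicate 2 of both groups. The 28S start piece averaged 34.04, 33.18 and 34.16 nt in control and 34.06, 33.35 and 33.93 nt with LPS. The Gly 5′ piece averaged 32.10, 31.19 and 32.32 nt in control and 31.99, 31.47 and 31.85 nt with LPS. In the Val and Lys groups the differences between the group means were -0.04 and -0.07 nt. For these 4 start groups replicate 2 had the shortest reads of its 3 samples in control and with LPS, and the exact permutation p for LPS against control was 0.6 to 1 before adjustment.

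LPS replicate 2 also stood apart in the 5.8S and internal 28S pieces. The first 5.8S start piece was at 497.3, 657.5 and 809.4 RPM in control and 474.0, 1725 and 814.4 with LPS, and the second, which begins 1 base earlier, at 443.7, 651.7 and 672.2 RPM in control and 431.6, 1648 and 663.2 with LPS. LPS replicate 2 exceeded the other samples in both. Their log2 fold changes of 0.70 (SE 0.55) and 0.72 (SE 0.57) had an adjusted p of 0.973 (edgeR) and were -0.13 and -0.22 without that sample. The 28S internal piece was lowest in it, with 708.6, 612.8 and 692.4 RPM in control and 723.2, 409.3 and 751.3 with LPS, and its log2 fold change of -0.14 (SE 0.29, adjusted p = 0.974) was 0.02 without LPS replicate 2.

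Some reads of lower rank add to this picture, and they were chosen after their values were seen. The internal 28S read also occurred with another first base, G1T, shown in capitals.
28S internal piece with T: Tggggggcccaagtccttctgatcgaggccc

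That form was at 256.4, 182.2 and 297.2 RPM in control and 241.8, 1255 and 318.4 with LPS. It made up 26.6%, 22.9% and 30% of both forms in control, and 25.1%, 75.4% and 29.8% with LPS, so LPS replicate 2 alone held more of the T form than of the G form. The exact permutation p between the groups was 0.5. A read with the letters of the 3′ end of 28S rRNA, named from background knowledge, went the other way in the same sample.
28S end piece: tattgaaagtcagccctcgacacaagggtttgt

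Its group was at 624.9, 851.7 and 549.4 RPM in control and 554.8, 75.5 and 615.9 with LPS, lowest in LPS replicate 2. The log2 fold change was -0.81 (SE 0.61, edgeR adjusted p = 0.973).

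His tRNA is of interest for its first base, since in eukaryotes an enzyme adds a G in front of the tRNA that the gene does not encode. RefSeq places n-THgtg7 at chr3:96452495-96452566 (GRCm38.p6, plus strand), and 62 of its 72 bases lie in a promoter window. Reads began at the first base of this sequence, with 1 G before it (in capitals), or at its second base.
His from the first base: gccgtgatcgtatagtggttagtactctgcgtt
His with G added: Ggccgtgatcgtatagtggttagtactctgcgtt
His from the second base: ccgtgatcgtatagtggttagtactctgc

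Reads from the first base were at 704.7, 383.4 and 439.9 RPM in control and 1093, 461.1 and 500.1 with LPS. Reads with the added G were at 630.5, 432.7 and 420.9 RPM in control and 920.0, 419.5 and 503.7 with LPS, close to the reads without it in each sample. Reads from the second base were at 438.6, 455.4 and 715.9 RPM in control and 773.9, 390.2 and 742.2 with LPS. LPS replicate 1 was highest for all of them and the groups overlapped (exact permutation p = 0.5, 0.7 and 0.7). For comparison, a G before the first base of the Val gene was seen in 1 distinct read, at 0.258 RPM in 1 sample. Exact pieces of n-THgtg7 that start after its second base were at 29.1 to 73.4 RPM.

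A second Lys read, named from background knowledge as Lys-TTT, ranked at 16.
Lys-TTT 5′ piece: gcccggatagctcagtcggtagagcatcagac

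The Lys-TTT read was at 799.3, 378.9 and 363.8 RPM in control and 796.6, 637.9 and 377.9 with LPS. Replicate 1 of each group was the highest of its 3, with LPS replicate 2 between LPS replicates 1 and 3.

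A further read lay across the anticodon of the Gly tRNA rather than on one side of it. Capitals mark the letters that are also the end of a longer read of the Gly 5′ piece.
Gly internal read: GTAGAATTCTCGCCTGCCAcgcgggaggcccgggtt

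It shares 19 letters with it. The Gly internal read was at 251.8, 508.9 and 379.5 RPM in control and 259.3, 513.9 and 425.6 with LPS. Replicate 2 was the highest of its 3 samples in control and with LPS.

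Exact matches to GENCODE transcripts took in 60203 distinct long reads, but only 4.08% to 6.21% of the long reads of a sample. Gm42418, a lincRNA known to overlap rRNA sequence, was first, at 1162, 725.8 and 1140 RPM in control and 2161, 2421 and 1039 with LPS. CT010467.1 is an rRNA entry, whose annotated strand was not checked against an rRNA sequence, so the next reads are not shown to be antisense to rRNA. Reads on the strand opposite to this entry were at 1862, 1312 and 1893 RPM in control and 3146, 3604 and 1760 with LPS. In both, LPS replicates 1 and 2 were the highest samples and LPS replicate 3 lay within the control range (exact permutation p = 0.3, adjusted p = 0.933 over 16 entries). These entries share reads, so they are not separate results. Copies of 5S rRNA, led by Gm22109, held 659.9, 280.3 and 438.6 RPM in control and 1129, 359.1 and 386.6 with LPS. Of the RNAs that RNA polymerase III makes, Rmrp (the RNA of RNase MRP) was at 244.0 to 384.7 RPM and Rny1 (Y RNA) at 200.5 to 426.2. Rny3 was at 126.5, 104.8 and 92.4 RPM in control and 96.2, 88.1 and 82.7 with LPS. For each of these RNAs the groups overlapped (exact permutation p = 1, 0.5 and 0.2). Lars2 exons were at 140.8 to 587.2 RPM and Tmem38b exons, in 18 distinct reads with the letters of the 3′ end of 5S rRNA (background knowledge), at 379.2 to 878.8. Among all start groups tested, a unit unlike these sums per entry, 3.79% were higher without overlap. Of the 16 entries, 2 sets of snRNA copies did not overlap between the groups. One was at 78.6, 84.1 and 92.1 RPM in control and 94, 104.6 and 102.2 with LPS, the other at 30.9, 40.2 and 42.8 RPM in control and 48.2, 107.2 and 47.7 with LPS. For both the exact permutation p was 0.1, the smallest possible, and the adjusted p was 0.8.

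Across all long reads, no difference between LPS and control passed the test. All distinct reads of the 6 files were fitted together in edgeR's quasi-likelihood test, and 9410 were tested, of which 1754 were long small RNAs. None was called at an adjusted p under 0.05, so 0% of the reads tested were called higher and 0% lower. Without adjustment, 23 long reads were higher and 6 lower at p under 0.05, against a share of 1.08% higher and 0.202% lower over all reads tested. DESeq2's Wald test called 0, with 35 long reads higher and 4 lower before adjustment, against 112 and 20 of all 9410 reads tested. By start group, 5721 were tested, of which 1459 held long reads, and again 0% were called in either direction. Before adjustment 29 long groups were higher and 4 lower in edgeR, where 1.87% of all groups tested were higher and 0.297% lower. In DESeq2 43 long groups were higher and 4 lower, against 133 and 18 of all 5721 groups tested. The groups of samples did not overlap in RPM, without any test, for 77 long start groups that were higher with LPS and 25 that were lower, where the shares over all start groups tested were 3.79% and 2.81%. The median log2 fold change of the long start groups was 0.21, against 0.0087 over all groups tested. It was 0.07 without LPS replicate 1 and 0.39 without LPS replicate 3. Long start groups higher before adjustment numbered 20 without LPS replicate 2, 66 without LPS replicate 1 and 200 without LPS replicate 3. The long groups tested were 1602, 1519 and 1816 in the same order. Over all start groups tested, 67 of 6225, 220 of 6019 and 476 of 6798 were higher, so the count rose in other reads too. After adjustment 0 were called in each.

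The 3 long start groups with the smallest p in each direction were all scarce. Those higher with LPS were pieces of rRNA. The first 2 matched Gm42418 exactly and held reads on the strand opposite to that annotated for CT010467.1, and the other has letters of 28S rRNA by background knowledge.
Higher 1: caggcccgagccgcctggataccgcagct
Higher 2: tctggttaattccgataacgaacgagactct
Higher 3: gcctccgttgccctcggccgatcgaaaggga

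Higher 1 was at 1.8, 0.828 and 1.96 RPM in control and 9.32, 4.92 and 3.63 with LPS (log2 fold change 1.89, SE 0.56). Higher 2 was at 0.773, 0.828 and 1.96 RPM in control and 5.44, 6.56 and 2.73 with LPS (log2 fold change 2.08, SE 0.65). Higher 3 was at 1.55, 0.414 and 1.4 RPM in control and 8.74, 3.33 and 2.73 with LPS (log2 fold change 2.01, SE 0.65). In all 3 the groups did not overlap and LPS replicate 3 was the lowest LPS sample. The unadjusted edgeR p was 0.00886, 0.0117 and 0.0141, and the adjusted p was 0.973 for each.

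The 3 with the smallest p among those lower with LPS were of other kinds. Lower 1 begins with the letters of miR-151-3p and ends in a run of T, and lower 3 has letters of the B1 repeat, both by background knowledge. Lower 2 begins with letters of the Illumina small RNA 5′ adaptor, as background, and its sequence is not shown.
Lower 1: ctagactgaggctccttgaggatttttt
Lower 3: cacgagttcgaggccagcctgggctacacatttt

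Lower 1 was at 5.41, 6.21 and 3.92 RPM in control and 3.11, 1.41 and 2.27 with LPS (log2 fold change -1.26, SE 0.49), where reads of 18 to 27 nt with the same start were at 1088 to 1908 RPM. Lower 2 was at 5.15, 7.04 and 5.88 RPM in control and 2.91, 2.2 and 3.18 with LPS (log2 fold change -1.16, SE 0.46), and its log2 fold change was -0.12 with start groups of 15 bases and -2.05 with 22 bases. Lower 3 was at 15.7, 21.1 and 21 RPM in control and 11.8, 7.4 and 11.8 with LPS (log2 fold change -0.95, SE 0.40). LPS replicate 2 was the lowest sample in all 3, and the unadjusted edgeR p was 0.0325, 0.0346 and 0.0436, with an adjusted p of 0.973 for each. The rule left 3174 distinct reads that begin with the first 18 bases of a mature RefSeq miRNA among the long small RNAs, and they were 0.121% to 0.368% of the long reads of a sample.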

How the data were processed

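Small RNAs of control and LPS-treated BMMs were sequenced by the authors from TruSeq small RNA libraries on a HiSeq 1000, with trimmed adaptors. The deposited files hold raw counts of each distinct trimmed read of 11 to 40 nt, without names or normalization. The build mm9 in the submitters' processing notes was not used here. Members, lists and names were chosen with earlier results of these data known. Reads were matched exactly to GENCODE M21 transcripts (GRCm38). tRNA gene places, promoter windows and mature miRNAs are those of RefSeq (GRCm38.p6). No genome sequence was used. Levels are reads per 1000000 reads of the sample (RPM). All distinct reads, and start groups with long reads kept apart from other reads of at least 18 nt, were filtered by filterByExpr, TMM normalized and tested by edgeR 4.0.16 (R 4.3.3) with Benjamini-Hochberg adjustment. DESeq2 1.42.0, other scalings and filters, start groups of 15 or 22 bases, a replicate block and leaving out each sample were alternatives. Shares and lengths were compared by two-sided exact permutation tests (Python 3.11.15, scipy 1.17.1). The text names the first 12 start groups by mean level and the 3 with the smallest p in each direction, of which 2 of the 12 are not reported here. The fits were tested on simulated data with known changes, at a smaller spread between samples than in these data. That simulation cannot tell which changes the fits would miss here. Same-numbered samples of the 2 groups deviated together over the reads (correlations 0.61, 0.248 and 0.23), less so over start groups (0.564, 0.082 and 0.126). Samples of different numbers correlated at -0.4 to 0.102 over the reads and -0.372 to 0.239 over start groups, where control replicate 2 was closer to LPS replicate 3 than to LPS replicate 2. The labels do not say what the numbers share. Depth was 2201520 to 17691405 reads, and intervals are 95% Wilson intervals.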

Additional observations from a re-analysis of the deposited data

How the results depend on the processing

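Of 286 recomputed counts of calls and fold changes, 271 kept their direction and their side of the threshold. Of 173 recomputed shares and lengths, whose exact tests cannot pass 0.05, 155 kept their direction. No alternative with a count filter called a long read or start group. Without the filter, 25 of 241760 long reads were called higher, against 358 of 738360 reads of any kind. By start group, 10 of 170535 long groups were called higher, against 127 of 421339 over all groups. LPS replicate 2 was the highest sample in each of these 10 long groups. Among them was Gly variant 3 (log2 fold change 1.10, edgeR adjusted p = 0.0361). With the replicate block 0 were called. Before adjustment 42 of 1754 long reads were higher and 12 lower in it, against 140 and 57 of all 9410 reads tested. The block changed no call, and the share of long reads differed by 1 percentage point in it (exact sign-flip p = 0.75). With replicate 2 of both groups left out, chosen after seeing the data, the share differed by 0.0579 percentage points. Over distinct reads seen at least 2 times, LPS minus control was -0.268 percentage points for rRNA transcripts, -3.11 for the A box and -0.035 for the B box. Shares of reads, with those seen once in a sample left out, kept the main direction for these 3 classes. LPS minus control was then 0.0672 percentage points for rRNA transcripts, 4.33 for the A box and 0.0403 for the B box. For the CCA end it turned to 3.96e-04 in that setting. The Val 5′ piece had a log2 fold change of 0.02 with library totals and 0.01 with at least 10 counts in every sample. Leaving out 1 sample at a time, the share moved from -0.961 to 2.14 percentage points, 33 nt from -7333 to 8730 RPM, 34 nt from -13534 to 3631, 35 nt from -2076 to 1823 and 36 nt from -3113 to 1367. The classes moved from -0.0338 to 0.129 percentage points for rRNA transcripts, -0.137 to 7.63e-04 for other small non-coding RNA, and -0.114 to 0.0244 for the CCA end, and from 0.882 to 10.2 for the A box. Log2 fold changes moved from -0.80 to 0.00 for the 28S start piece, -0.32 to 0.41 for Val, -0.26 to 0.81 for Gly, -0.05 to 0.17 for Lys, -0.23 to 0.49 and -0.30 to 1.49 for Gly variants 1 and 3, -0.13 to 1.10 and -0.22 to 1.12 for the 5.8S pieces, and -0.30 to 0.02 for the 28S internal piece. Each of these log2 fold changes turned sign, or fell to 0.00, without LPS replicate 2, and the cause was not tested. Reads of a few counts limit the scarce groups, and the shallowest sample had 2201520 reads.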
